A study of Mus musculus with 6 samples.

Results

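The genes described here encode the Sm core, the ring of small proteins at the heart of the spliceosome's small nuclear ribonucleoproteins (snRNPs). The 7 members, Snrpb, Snrpd1, Snrpd2, Snrpd3, Snrpe, Snrpf and Snrpg, were selected on gene symbol from a table of 29139 genes, and all 7 were found. The family was proposed with its counts in the MS-444 and DMSO libraries already known. All 7 also passed the filter on low counts that left 11864 genes for testing. RNA was measured in 2-cell embryos of the ICR mouse strain kept in KSOM, a culture medium for early embryos. One group of 3 libraries was cultured with 0.1% DMSO, the solvent control, and the other group of 3 with 75 µM MS-444, a small molecule described as an inhibitor of the RNA-binding protein HuR (Elavl1). The protocol names 16 embryos lysed, and the labels do not say whether the MS-444 medium held the same amount of DMSO, nor whether replicates came from separate cultures, so that any p-value measures the spread between these libraries, which may be technical. The series is about how MS-444 arrests embryonic development. Libraries are called D1, D2 and D3 (DMSO) and M1, M2 and M3 (MS-444) by their replicate numbers.

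In every snRNP of the Sm class, a short uridine-rich stretch of the snRNA is encircled by a ring of Sm proteins. The ring is put together in the cytoplasm from preformed parts, the SmD1-SmD2 pair, the SmE-SmF-SmG trimer and the SmB-SmD3 pair, by the SMN complex after the PRMT5 methylosome has modified arginines in the tails of SmB, SmD1 and SmD3. The finished core returns to the nucleus, where snRNP-specific proteins join and the particle takes part in splicing. In mouse embryos, transcription of the embryo's own genome starts before and during the 2-cell stage, so that the RNA of this stage is a mix of transcripts stored by the oocyte and new ones, and the counts here do not separate the sources.

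The promoters of 3 members are shown as examples. Snrpd2 separated the groups in every library, whereas Snrpe and Snrpg varied together across libraries of both groups. Snrpg overlapped between the groups through D2 alone. RefSeq promoter sequences on GRCm38.p6 (250 bases before to 50 after the start) matched 5 of the 7 members, Snrpd2, Snrpd3, Snrpe, Snrpf and Snrpg. The entries printed are those at chr7:19149588-19149887 on the plus strand for Snrpd2, chr1:133610231-133610530 on the minus strand for Snrpe and chr6:86371290-86371589 on the plus strand for Snrpg. Capitals mark matches, on either strand, to the ETS core CGGAAG, the cyclic AMP response element TGACGTCA, the NRF1 motif (GCGC, any base, TGCGC), the SP1 motif GGGCGG and the CCAAT box CCAAT.
Snrpd2: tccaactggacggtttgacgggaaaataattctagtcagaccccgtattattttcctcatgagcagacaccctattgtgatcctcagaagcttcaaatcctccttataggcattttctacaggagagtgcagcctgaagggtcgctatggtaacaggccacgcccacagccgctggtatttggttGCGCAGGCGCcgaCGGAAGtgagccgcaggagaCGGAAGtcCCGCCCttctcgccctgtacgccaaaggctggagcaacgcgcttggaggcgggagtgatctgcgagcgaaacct
Snrpe: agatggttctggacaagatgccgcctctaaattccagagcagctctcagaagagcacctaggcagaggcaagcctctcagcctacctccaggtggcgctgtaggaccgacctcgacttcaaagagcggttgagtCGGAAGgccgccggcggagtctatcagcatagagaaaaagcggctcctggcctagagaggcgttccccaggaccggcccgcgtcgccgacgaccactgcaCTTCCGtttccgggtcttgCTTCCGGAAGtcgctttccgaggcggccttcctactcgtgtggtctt
Snrpg: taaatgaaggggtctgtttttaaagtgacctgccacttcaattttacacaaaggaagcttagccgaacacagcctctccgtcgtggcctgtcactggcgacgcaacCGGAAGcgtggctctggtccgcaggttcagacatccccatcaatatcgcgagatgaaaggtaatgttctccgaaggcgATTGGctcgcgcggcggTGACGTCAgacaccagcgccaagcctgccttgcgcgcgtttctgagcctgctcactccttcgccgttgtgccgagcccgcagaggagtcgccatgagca

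The ETS core had 2 matches in the Snrpd2 window, 4 in that of Snrpe, of which the last 2 overlap each other, and 1 in that of Snrpg, and 16.9% of 32851 mouse promoter windows of this length held at least 1. Snrpg alone of the 5 windows held the cyclic AMP response element, which 1.79% of all windows held. Snrpd2 alone held the NRF1 motif, as did 4.6% of all windows. The CCAAT box had 3 matches in Snrpf, 2 in Snrpd3 and 1 in Snrpg (37.4% of all windows), and the SP1 motif 1 each in Snrpd2 and Snrpd3 (35.7%), where in Snrpd3 it overlaps a CCAAT box. The TATA motif TATAAA (13.6%) and the YY1 motif (AAGATGG followed by CGG, 0.852%) were searched too and had 0 matches in the 5 windows. These matches describe letters in the windows and say nothing of which factor is bound.

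Because MS-444 is described as acting on HuR, a protein that binds uridine-rich and AU-rich stretches of mRNA, the 3′ untranslated regions of the members were searched on the sense strand for TTTNTTT and ATTTA, in 1 GENCODE M21 transcript per gene. The first match to each motif is shown for the members whose level separated the groups and for Snrpe and Snrpg, with the match in capitals.
Snrpb, TTTNTTT: acagacctgTTTGTTTgttatgcagt
Snrpd2, TTTNTTT: gctgtcctcTTTCTTTtttcttttca
Snrpd2, ATTTA: agggaagcctATTTAagaggctcgtg
Snrpe, ATTTA: tgcaacctgcATTTActcaacttgtt
Snrpg, TTTNTTT: tttagaataTTTATTTgtatgacatg
Snrpg, ATTTA: gttttagaatATTTAtttgtatgaca

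Snrpb had 1 TTTNTTT and 0 ATTTA in 298 bases, where 37.3% and 40.5% of tested genes with a 3′ untranslated region within 20% of that length held at least 1. Snrpd2 had 2 and 1 in 892 bases (72.8% and 74.3%), and Snrpg had 1 and 4 in 545 bases (56.2% and 56.9%), of which 1 pair overlaps. Snrpe had 0 and 1 in 150 bases (25.4% and 24.3%). Snrpd1 had 3 and 0 in 360 bases (39.8% and 42.6%), Snrpf 14 and 2 in 435 bases (47.5% and 48.7%) and Snrpd3 14 and 3 in 2059 bases (93.2% and 92.9%). Runs of T give overlapping matches, as in Snrpf and Snrpd3. Snrpf and Snrpd3 held the most TTTNTTT matches of the 7, and Snrpg the most ATTTA matches. Snrpb and Snrpd2, whose groups did not overlap, held 1 and 2 TTTNTTT matches. Among the members whose groups overlapped, Snrpe, Snrpg and Snrpd1 held 0, 1 and 3, and Snrpf and Snrpd3 held 14 each. A link between these counts and the levels was not tested. Whether HuR binds these stretches in embryos was not measured.

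Library totals ranged from 2637763 to 4695866 counts. Summed levels of 9 transcripts typical of 2-cell embryos, such as Zscan4d and Zfp352, were 1352 to 1994 CPM (counts per 1000000 counts of the library, scaled by edgeR's TMM factors) in DMSO and 1518 to 1898 CPM in MS-444, with all 9 detected. Those of 9 transcripts stored by the oocyte were 5092 to 7386 and 3751 to 4698 CPM. The 9 include Oosp1, which did not follow the sum. Oosp1 was at 935, 1837 and 655 CPM in DMSO and at 1270, 2469 and 2185 CPM in MS-444. Of 12 markers of cumulus and granulosa cells, the follicle cells that surround the oocyte, 10 were analysed here and all 10 had counts, with sums of 11.97 to 13.99 CPM in DMSO and 26.01 to 28.38 CPM in MS-444 (exact permutation p = 0.1, two-sided, the smallest that 3 against 3 libraries allow). Of these 10, 3 passed the filter on low counts. Mitochondrial transcripts took 3.22% to 3.86% of the counts in DMSO and 4.44% to 5.27% in MS-444, and ribosomal protein genes 0.325% to 0.663% and 0.960% to 1.56%. Neither share overlapped between the groups (exact permutation p = 0.1 for each, two-sided), and the same held for the sum of the stored transcripts (exact p = 0.1). The part of these 4 measures in the values that follow was not tested. D2 stood apart from the other DMSO libraries for short transcripts. Transcripts under 1000 bases took 7.40% of the protein-coding counts in D2, 9.07% in M2 and 8.15% in M3, against 3.83%, 3.08% and 5.15% in D1, D3 and M1. The 95% Wilson intervals of these shares reach at most 0.034 percentage points to either side and cover counting error only. The groups overlapped in this share (two-sided exact permutation p = 0.2).

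Of the 7 Sm genes, Snrpb and Snrpd2 were higher in every MS-444 library than in every DMSO library, by 3.62-fold and 3.67-fold in the fit, and the groups overlapped for the other 5. These 5 instead varied together across libraries, high in D2 and in M2 and M3 and low in the remaining libraries. Each subassembly that holds a risen gene paired it with one that did not pass: Snrpd2 with Snrpd1, and Snrpb with Snrpd3. In edgeR's quasi-likelihood test across all genes, with a threshold of 0.05 on the Benjamini-Hochberg adjusted p, 2 of the 7 members passed, both higher, beside 25.5% of all genes tested (14.4% higher and 11.1% lower). Over all genes 1706 were higher and 1322 lower, or 2179 and 881 with library totals in place of TMM. Groups did not overlap for these 2 members, nor for 43.9% of all genes tested (23% higher and 20.9% lower). The members were proposed with this comparison already known, so that their fold changes and calls are a description, and no p-value is attached to them. Their median log2 fold change was 0.47, beside 0.02 over all genes tested. With 1 library left out it was 0.14 (D1), 1.33 (D2), 0.05 (D3), 0.74 (M1), 0.23 (M2) and 0.26 (M3). CPM values are shares of a library's counts, and a change in RNA per embryo cannot be told apart from a change in the other transcripts. Fewer cells and less RNA per cell cannot be told apart either.

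**Figure D1:**
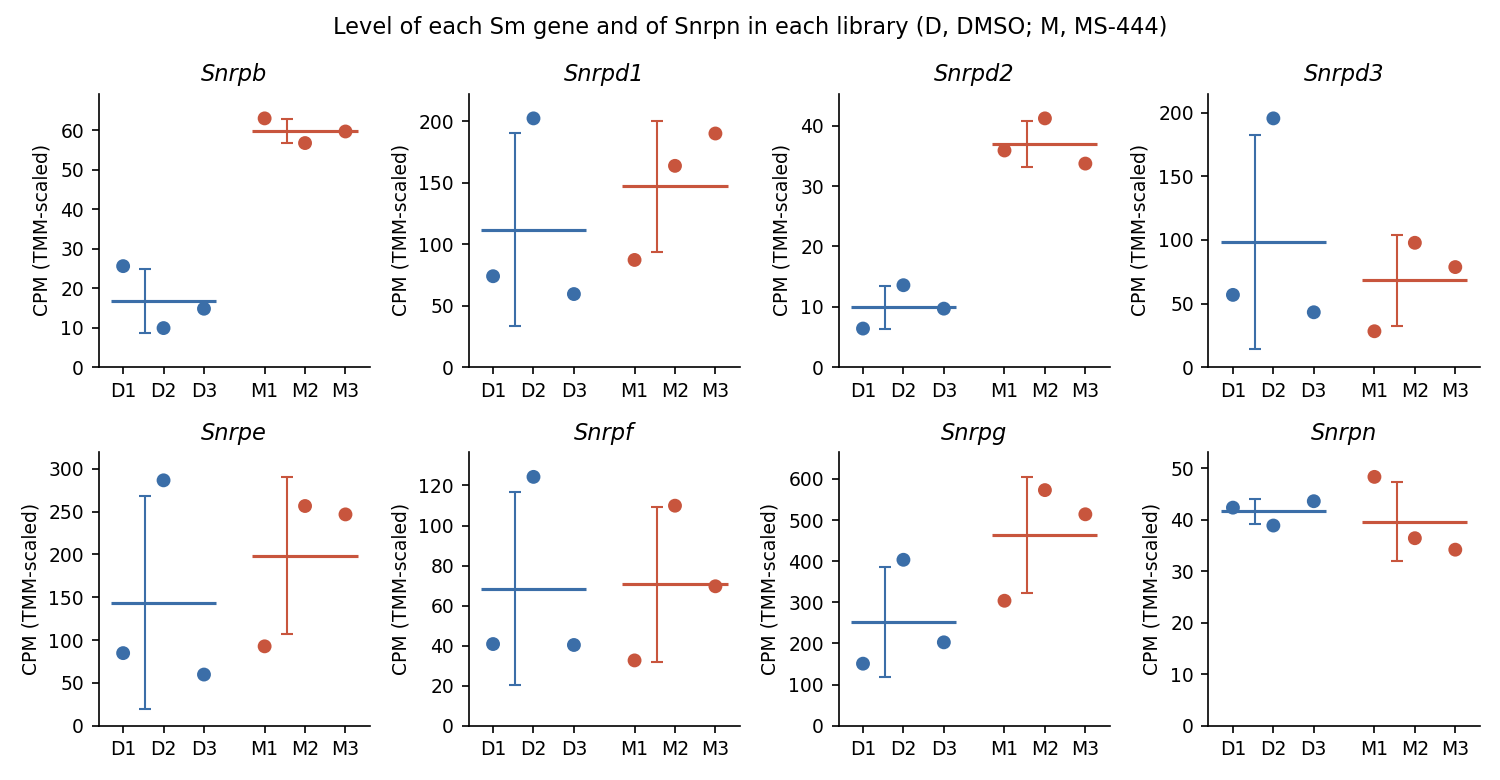
Level of each of the 7 Sm genes and of the SmB paralog gene Snrpn, in TMM-scaled CPM, in the 3 DMSO (D1 to D3, blue) and 3 MS-444 (M1 to M3, red) libraries, with a horizontal line at the group mean and a bar of 1 SD. The groups separate for Snrpb and Snrpd2, and D2 is the highest DMSO library for every Sm gene except Snrpb.

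The pair of SmD1 and SmD2 starts the ring on the assembly chaperone. Snrpd2 (ENSMUSG00000040824, SmD2) stood at 6.40, 13.6 and 9.70 CPM in D1, D2 and D3 and at 35.9, 41.2 and 33.7 CPM in M1, M2 and M3. The lowest MS-444 library was thus well above the highest DMSO library, and the log2 fold change was 1.88 (SE 0.34), between means of 9.89 ± 3.597 and 36.95 ± 3.86 CPM (SD, n = 3). These levels rest on 16 to 59 counts per DMSO library and 98 to 139 per MS-444 library. Snrpd1 (ENSMUSG00000002477, SmD1), its partner, was at 74.0, 202 and 59.5 CPM in DMSO and at 87.2, 164 and 190.0 CPM in MS-444. D2 exceeded every MS-444 library, and M1 was within the range of the DMSO libraries. The log2 fold change of Snrpd1 was 0.39 (SE 0.46), below the threshold. Without D2 it was 1.08, and without D3 it was 0.04, and in neither case was it past the threshold.

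The trimer of SmE, SmF and SmG joins the SmD pair to form an open ring. Snrpg (ENSMUSG00000057278, SmG) was the member with the most counts, 377 to 2118 per library. Its level was 151, 403 and 203 CPM in DMSO and 304, 573 and 514 CPM in MS-444. Snrpg overlapped between the groups through D2 alone, which lay above M1. The log2 fold change was 0.88 (SE 0.38) and did not pass, but it passed without D2, at 1.33. Snrpe (ENSMUSG00000090553, SmE) was at 84.8, 287 and 59.7 CPM in DMSO and at 92.7, 257 and 247 CPM in MS-444. Its highest library was a DMSO library, at 4.80 times the lowest one of the same group, and the log2 fold change of 0.47 (SE 0.56) did not pass. Without D2 it was 1.40, still not past the threshold, without D3 it was 0.05, and once corrected for GC content and length it was -0.16. Snrpf (ENSMUSG00000020018, SmF) was at 40.8, 124 and 40.3 CPM in DMSO and at 32.6, 109.9 and 69.6 CPM in MS-444. Its highest library was D2 and its lowest M1, the reverse of Snrpb. The log2 fold change was 0.04 (SE 0.51), and its sign did not hold: it was 0.74 without D2 and -0.49 without M2.

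The SmB-SmD3 pair closes the ring. Snrpb (ENSMUSG00000027404, SmB) was at 25.6, 9.90 and 14.8 CPM in DMSO and at 63.0, 56.8 and 59.7 CPM in MS-444. The 3 MS-444 libraries differed by 1.11-fold from lowest to highest, and the DMSO libraries by 2.59-fold. The group means were 16.8 ± 8.03 and 59.8 ± 3.13 CPM (SD, n = 3). The log2 fold change was 1.86 (SE 0.36), from 43 to 64 counts per DMSO library and 172 to 246 per MS-444 library. Snrpd3 (ENSMUSG00000020180, SmD3), its partner, was at 56.8, 195 and 43.1 CPM in DMSO and at 28.2, 97.7 and 78.6 CPM in MS-444. The highest library was D2 and the lowest M1. Its log2 fold change, -0.53 (SE 0.58), was the lone negative one among the 7, did not pass, and was 0.39 without D2.

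**Figure D2:**
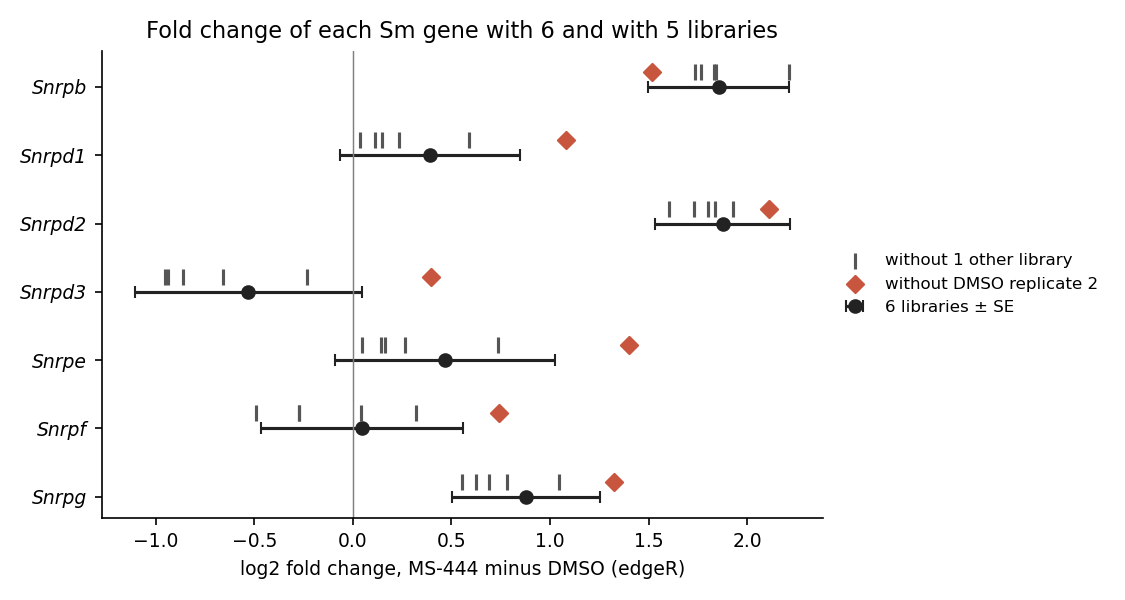
Log2 fold change of each Sm gene, MS-444 minus DMSO, from edgeR: the black point with its bar is the estimate from 6 libraries ± SE, grey ticks are estimates that leave out 1 library, and the red diamond leaves out D2. Snrpb and Snrpd2 stay between 1.52 and 2.21. The diamond lies to the right of all other estimates for every Sm gene except Snrpb, for which it lies to the left of them.

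Snrpn (ENSMUSG00000102252) encodes SmN, a close relative of SmB that can take its place in the ring and is best known from brain. Snrpn was at 42.4, 38.9 and 43.6 CPM in DMSO and at 48.4, 36.4 and 34.2 CPM in MS-444. Its level was nearly flat across the 6 libraries, and the log2 fold change was -0.07 (SE 0.27, edgeR adjusted p = 0.86), with values of either sign across the alternatives (-0.29 to 0.11). Per kilobase of transcript, the level of Snrpb was 1.08, 0.455 and 0.607 times that of Snrpn in the DMSO libraries and 2.33, 2.79 and 3.12 times in the MS-444 libraries. Snrpb was thus below Snrpn per length in 2 of 3 DMSO libraries and above it in all 3 MS-444 libraries.

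The 5 overlapping members shared a library pattern. D2 was above the mean of the other 2 DMSO libraries by 3.97-fold for Snrpe, 3.91-fold for Snrpd3, 3.07-fold for Snrpf, 3.03-fold for Snrpd1 and 2.28-fold for Snrpg, and by 1.69-fold for Snrpd2, whereas Snrpb was at 0.490 times that mean. It was over 2-fold above each of the other DMSO libraries for 4 members, Snrpd1, Snrpd3, Snrpe and Snrpf, as for 4.54% of all genes tested. M1 was below 0.5 times each of the other MS-444 libraries for Snrpd3, Snrpe and Snrpf, as for 6.54% of genes, and both held for these 3 members and for 1.22% of genes. The genes with both patterns had a median transcript length of 836 bases, beside 2787 bases over all genes tested. The annotated transcripts of the members were short as well, 503 bases for Snrpe, 858 for Snrpd1, 861 for Snrpf, 1055 for Snrpg, 1161 for Snrpb and 1420 for Snrpd2, with 3036 bases for Snrpd3 as the exception. The share of counts from short transcripts was high in the same libraries, and its part in these values was not tested.

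**Figure D3:**
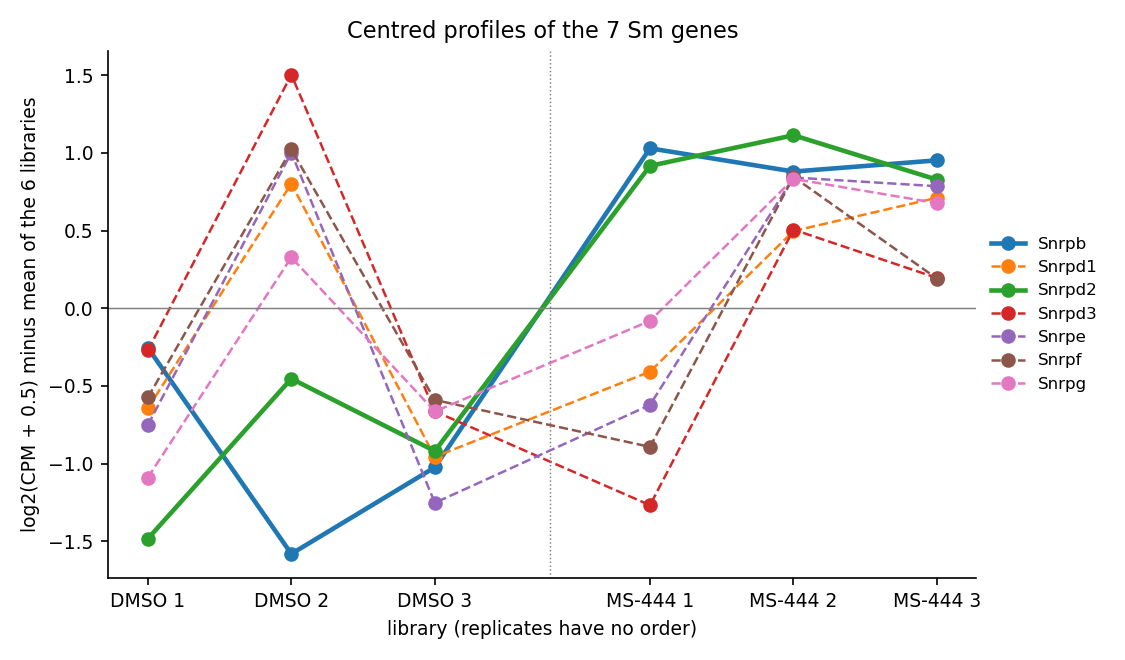
Profile of each Sm gene over the 6 libraries as log2(CPM + 0.5) minus the gene's mean, with solid lines for Snrpb and Snrpd2 and dashed lines for the other 5 (lines join the points of a gene, and replicates have no order). The dashed profiles peak in D2 or in M2 or M3, and the solid ones are below 0 in each DMSO library and above 0 in each MS-444 library.

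Distances between such profiles, as the root mean square difference in log2 units over the 6 libraries, placed Snrpd1 with Snrpe (0.23) and Snrpd3 with Snrpf (0.31) as the closest pairs of members. The subunits of an assembly pair were farther apart, 0.86 for Snrpd1 and Snrpd2 and 1.61 for Snrpb and Snrpd3, the latter being the largest distance of the 21. Snrpe and Snrpf were at 0.39, Snrpe and Snrpg at 0.45, and Snrpf and Snrpg at 0.52. The genes nearest to the mean profile of the 7 members, among 8979 other genes with a mean of at least 5 CPM, were Atp5e (0.09), a small subunit of the ATP synthase, Cops9 (0.11), of the COP9 signalosome, Siva1 (0.11), an apoptosis-related gene, Oosp1 (0.11), an oocyte-secreted protein gene, and Thyn1 (0.12). The members themselves lay farther from that mean profile, from 0.18 (Snrpg) to 0.97 (Snrpb), with Snrpd2 at 0.66. The mean profile blends unlike members, so that these nearest genes need not resemble Snrpb or Snrpd2. The 5 nearest genes had transcripts of 421 to 1107 bases and log2 fold changes of 0.54 to 0.90. Cops9, for example, was at 38.0, 99.2 and 39.3 CPM in DMSO and at 67.8, 127 and 122 CPM in MS-444.

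Per kilobase of annotated transcript, the order of the members in DMSO from high to low was Snrpe (286 ± 247 CPM per kb), Snrpg (239 ± 126), Snrpd1 (130.4 ± 91.7), Snrpf (79.5 ± 56.2), Snrpd3 (32.4 ± 27.8), Snrpb (14.4 ± 6.91) and Snrpd2 (6.97 ± 2.53, SD, n = 3 each). Every neighbour in that order overlapped with the next. In MS-444 Snrpg (439 ± 134 CPM per kb) and Snrpe (395 ± 183) led, followed by Snrpd1 (171 ± 62.2), Snrpf (82.1 ± 44.9), Snrpb (51.5 ± 2.69), Snrpd2 (26.02 ± 2.72) and Snrpd3 (22.4 ± 11.8), and of the neighbours only Snrpb and Snrpd2 did not overlap. The members with the lowest mean level per length in DMSO, Snrpd2 and Snrpb, were the ones higher in MS-444. The DMSO level is also a term of the fold change, so that this is not a separate result. Summed over the 7, the level was 490, 1415 and 461 CPM per kb in DMSO and 700.4, 1482 and 1381 CPM per kb in MS-444, with D2 among the MS-444 libraries. The transcript forms present in these embryos were not measured, so that levels per length depend on the annotated lengths.

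Several members have near copies in the genome with which reads can be shared. Of the rows of the table, the processed pseudogene Gm8186 is identical to Snrpg over 231 bases and had 17, 73 and 27 counts in DMSO and 76, 124 and 74 in MS-444, which equals 3.40% to 9.17% of the counts of Snrpg. Gm10120, 98.9% identical to Snrpd2 over 357 bases, had 0, 1 and 2 counts in DMSO and 2, 16 and 11 in MS-444, up to 11.6% of those of Snrpd2. Snrpert, 98.9% identical to Snrpe over 279 bases, had 0 to 8 counts per library. Snrpf shares 504 bases with Ccdc38 on the opposite strand, a gene with 101 to 378 counts per library that was lower in MS-444 (log2 -0.93, SE 0.29, edgeR adjusted p = 0.041). The sources used here do not say whether counting used the strand, so that reads of Snrpf and Ccdc38 may not be told apart. Among the genes counted here, no near copy of Snrpb or Snrpd3 was found at 90% identity over at least 150 bases. Copies elsewhere in the genome were not searched.

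The other genes of the snRNP pathway showed changes in both directions. Of 72 tested members of the lists for assembly, modification, transport, snRNA synthesis and snRNP-specific proteins, 13 rose and 4 fell, or 23.6%, beside 25.5% of all genes tested. The median log2 fold change was 0.54, and 0.02 over all genes tested. Over all genes tested 14.4% rose and 11.1% fell. The single lists that follow hold few genes each, and no list was tested as a set. In 5 of these genes, Gemin2, Gemin8, Riok1, Zcrb1 and Snapc5, the call held in each of the 18 alternatives. The count of risen genes was 22 without D1, 5 without D2, 5 without D3, 8 without M1, 3 without M2 and 6 without M3. Where leaving out a library ended a call, the estimates were 0.73 to 1.59 for risen and -1.14 to -0.86 for fallen genes (edgeR adjusted p 0.0506 to 0.156). The calls of Prmt5, Prpf4, Snapc2 and Snrnp25 were also lost under another filter or after adjusting for GC and length.

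**Figure D4:**
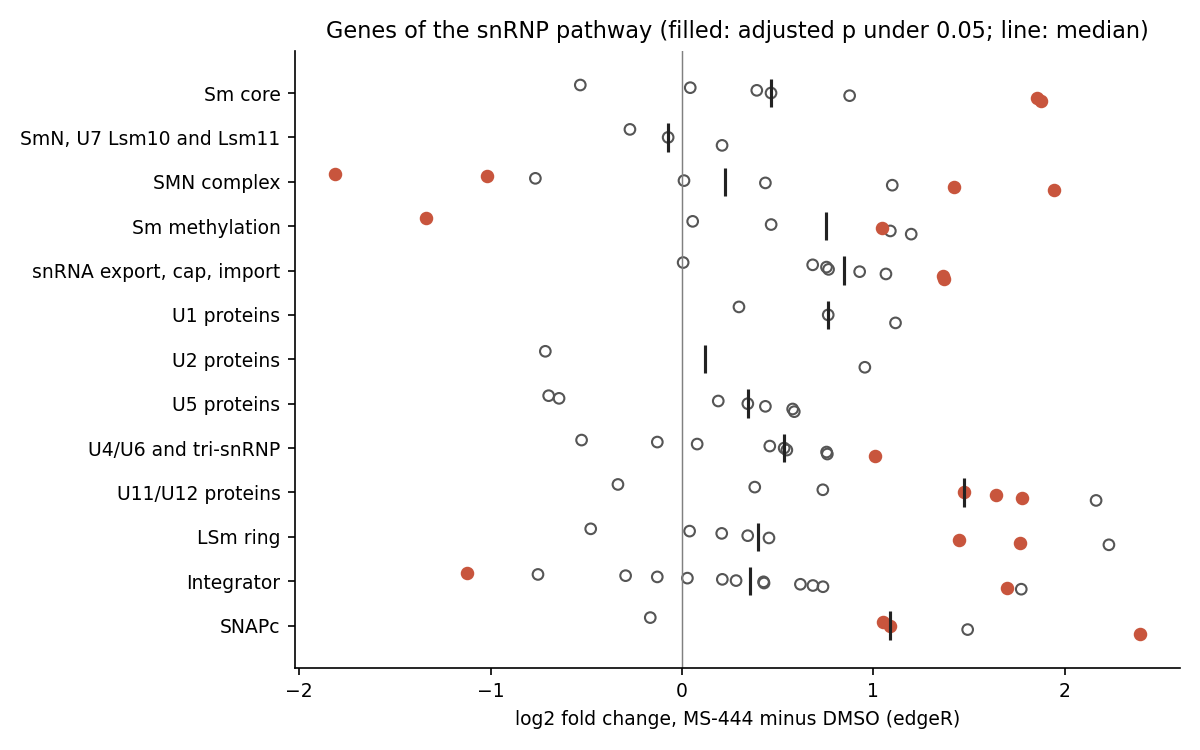
Log2 fold change, MS-444 minus DMSO, of each tested gene in the lists of the snRNP pathway and of the LSm ring, with filled points for an adjusted p under 0.05 in edgeR's test over all genes, open points for the rest, and a line at the median of each list. The Sm core holds 2 filled points, and the SMN complex holds filled points on both sides of 0.

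The SMN complex loads Sm proteins onto snRNA. Of its 8 tested genes 2 rose and 2 fell (14.4% and 11.1% of all genes tested), with a median log2 fold change of 0.22. Gemin2, whose protein holds the open ring of SmD1, SmD2, SmE, SmF and SmG, stood at 4.80, 3.91 and 3.06 CPM in DMSO and 16.1, 15.2 and 13.8 CPM in MS-444 (log2 1.95, SE 0.37, edgeR adjusted p = 0.0074). Gemin5, the subunit that recognises snRNA, rose by 1.42 on the log2 scale (adjusted p = 0.030), a call lost without any 1 library except D1. Gemin8 went from 37.6, 46.5 and 66.1 CPM to 12.1, 18.8 and 11.9 CPM (log2 -1.81, SE 0.34, edgeR adjusted p = 0.0068). Smn1, which encodes SMN itself, went from 117, 174 and 123 CPM to 46.2, 91.7 and 66.0 CPM (log2 -1.02, adjusted p = 0.036 in edgeR), a call lost with library totals in place of TMM and without D2, D3, M1 or M3. Strap, the most abundant, did not pass (log2 0.44, adjusted p = 0.20). The groups did not overlap for 4 genes of this complex on the higher side and 2 on the lower side. These include Ddx20 and Strap, which did not pass. Over all genes tested 43.9% did not overlap.

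Of 6 genes in the list for Sm methylation, not all of them parts of the methylosome, 1 rose and 1 fell. This was 33.3%, beside 25.5% of all genes tested. Prmt5, the methyltransferase of the methylosome, rose by 1.04 (edgeR adjusted p = 0.038). The call of Prmt5 was lost without any 1 of the 6 libraries. Riok1, an adaptor that directs PRMT5 to other substrates and the most abundant gene of the list, went from 463, 448 and 540.2 CPM to 202, 210.3 and 162 CPM (log2 -1.34, SE 0.23, edgeR adjusted p = 0.0052). Of 8 genes of snRNA export, cap modification and import, Snupn and Coil rose, or 25.0%, beside 25.5% of all genes tested. Snupn, the import adaptor for the snRNA cap, went from 34.2 ± 13.6 to 87.7 ± 11.2 CPM (SD, n = 3, log2 1.37, edgeR adjusted p = 0.014), a call lost without M2 alone. Coil, the coilin of Cajal bodies, rose by 1.36 (edgeR adjusted p = 0.020), a call lost without D2, D3, M2 or M3. The export receptor Xpo1, the most abundant, did not pass (log2 0.77, adjusted p = 0.16).

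Among proteins particular to single snRNPs, 0 of 3 for U1, 0 of 2 for U2 and 0 of 7 for U5 passed in edgeR, beside 25.5% of all genes tested. Of these 12 genes 3 (Snrpa, Snrpc and Snrpa1) had an unadjusted p under 0.05, DESeq2 called 0, and limma called 0 or 1 by its setting. Over the 18 alternatives, Snrpa1 was called in 5, Snrpc in 3, Snrpa in 2 and Cd2bp2 of U5 in 1. Without D1, Snrpa, Snrpc and Snrpa1 were all called. The most abundant gene of each list, Snrpc of U1 (log2 1.12, adjusted p = 0.10), Snrpb2 of U2 (-0.71, adjusted p = 0.20) and Prpf8 of U5 (0.34, adjusted p = 0.38), did not pass. Of 9 genes of U4/U6 and the tri-snRNP, 1 passed, or 11.1%, beside 25.5% of all genes tested. It was Prpf4, which rose by 1.01 (edgeR adjusted p = 0.034), a call lost without any 1 library except D1. Snu13, the most abundant of the 9, did not pass (log2 0.76, adjusted p = 0.12). Of 7 genes of the U11/U12 snRNP of the minor spliceosome, 3 rose, beside 14.4% of all genes tested. Zcrb1 went from 19.6, 26.2 and 12.8 CPM to 49.5, 63.3 and 70.4 CPM (log2 1.64, SE 0.33, edgeR adjusted p = 0.0084) and Zmat5 rose by 1.78 (adjusted p = 0.010), a call lost without M2. Snrnp25 rose by 1.48 (edgeR adjusted p = 0.036), a call lost without any 1 library except D1, and Rnpc3, the most abundant, did not pass (log2 0.74, adjusted p = 0.093). The U7 ring, which processes histone mRNA, replaces SmD1 and SmD2 by Lsm10 and Lsm11, and neither gene passed (0.21 and -0.27, edgeR adjusted p = 0.72 and 0.73). Lsm10 was at 54.8, 138 and 44.1 CPM in DMSO and at 79.9, 100.1 and 94.9 CPM in MS-444, highest in D2 like most Sm genes.

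SNAPc is the complex that starts transcription of snRNA genes, and 3 of its 5 genes rose, beside 14.4% of all genes tested. Snapc5 went from 5.997, 10.1 and 2.55 CPM to 31.1, 33.8 and 34.2 CPM (log2 2.39, SE 0.45, edgeR adjusted p = 0.0068). Snapc3 rose by 1.09 (adjusted p = 0.022) and Snapc2 by 1.05 (edgeR adjusted p = 0.045), and both calls were lost without D2, D3, M2 or M3, that of Snapc2 also without M1. Of 14 genes of Integrator, which trims the 3′ ends of snRNA, 1 rose and 1 fell, or 14.3%, beside 25.5% of all genes tested. Ints7 rose by 1.70 (edgeR adjusted p = 0.018) and Ints12 fell by 1.13 on the log2 scale (adjusted p = 0.012). The call of Ints7 was lost without D2, D3, M1 or M2, and that of Ints12 without M2 or M3. Ints13, the most abundant, did not pass (log2 0.03, adjusted p = 0.94).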

How the data were processed

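Raw counts for 29139 Ensembl genes in 6 libraries were deposited by the authors as 1 table. Per the labels' protocols, samples were pooled after reverse transcription and cDNA was amplified by PCR. The tools and build in the submitters' processing notes are HISAT2, Cufflinks 2.2.1 and mm9. The counting program, its annotation, and any use of strand or molecular identifiers were not given in the sources used here. GENCODE M21, on a newer build, supplied symbols for 29075 identifiers (64 had none), transcript lengths and 3′ untranslated regions. Promoters came from RefSeq on GRCm38.p6.

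Counts were tested with edgeR 4.0.16 in R 4.3.3 (default expression filter, TMM, quasi-likelihood test, two-sided, Benjamini-Hochberg over 11864 genes), with group as the single term. Alternatives used limma 3.58.1, DESeq2 1.42.0 and, to adjust for GC and length, mgcv 1.9.3, and near copies were found with BLAST 2.17.0. Transcripts were chosen as protein-coding, APPRIS-principal and longest, in that order.

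The members and lists were chosen with earlier results of these data known. Named genes are the 7 members, Snrpn, the genes of a list that passed (up to 5, otherwise 3), its most abundant gene and the 5 nearest profiles. The near copies and Ccdc38 were named after their values were seen.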

Additional observations from a re-analysis of the deposited data

How the results depend on the processing

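In all, 18 alternatives were run. Snrpb (1.37 to 2.21) and Snrpd2 (1.60 to 2.11) stayed past the threshold in each, and 2 or 3 members were called higher and 0 lower. The third was Snrpg, past the threshold after quantile normalization in limma (1.15), with no filter on low counts (0.82), with the replicate block (0.95), with that block plus adjustment for GC and length (0.62), and without D2 (1.33). The median of the members was 0.08 with the GC and length adjustment alone, and 0.046 to 1.33 with 1 library left out. Signs changed for Snrpd3 with 1 library left out (-0.96 to 0.39), for Snrpe with the adjustment (-0.16, and -0.092 with adjustment and block together), for Snrpf with no filter (-0.0073), at least 1 CPM in 3 libraries (-0.019), the adjustment (-0.35, and -0.35 with both) and 1 library left out (-0.49 to 0.74), and for Snrpn with library totals (0.11), the adjustment (0.029, and 0.027 with both) and 1 library left out (-0.29 to 0.012). The cause was not tested.

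Over all genes, 1044 were called higher without D2, 880 without D3, and 659 to 2099 with any 1 library left out, and 500 to 1721 lower. Library totals gave 881 lower and 2179 higher, with the median of all genes at 0.20. Of the other snRNP genes, 22 were called higher with library totals, 21 with the block, 21 with the adjustment and 25 with both, and 3 to 22 higher and 2 to 4 lower with 1 library left out. Deviations from group means correlated across genes at 0.05, 0.37 and -0.10 for replicate numbers 1, 2 and 3. Libraries did not all correlate best with their own number. The deviations within a group of 3 depend on each other, so that these values cannot show whether the numbers mark pairs. Snrpd2 and Snrpb rest on 16 to 64 counts per DMSO library. Their SEs, 0.34 and 0.36, were nevertheless the smallest among the members.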

Other observations

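The LSm proteins share the fold of the Sm proteins and form rings on U6 snRNA and on mRNA undergoing decay. Of the 8 genes Lsm1 to Lsm8, 2 passed, or 25.0%, both higher in MS-444, beside 25.5% of all genes tested (14.4% higher and 11.1% lower). The median log2 fold change of the 8 was 0.40 (0.47 for the Sm genes). Lsm8, particular to the nuclear ring, stood at 12.4, 13.6 and 12.5 CPM in DMSO and 52.8, 40.0 and 38.6 CPM in MS-444 (log2 1.76, SE 0.29, edgeR adjusted p = 0.0047), and its call held in each of the 18 alternatives. Lsm4, present in both rings, rose by 1.45 (edgeR adjusted p = 0.020), a call lost without D3, M2 or M3 (1.19 to 1.42) and after adjustment for GC and length (0.78). Lsm1, particular to the cytoplasmic ring and the most abundant, did not pass (log2 0.45, adjusted p = 0.26). Whether the Sm and LSm genes differ in their response was not tested.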
